A study of Mus musculus with 2 samples.

Results

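A list of 45 genes of interferon signalling and of the response to interferon was followed in a three-dimensional murine skin model lacking Itih5 and in its wildtype control. A gene was taken where the array's annotation gave a probe set to that symbol alone, which held for 41 of the 45, read by 42 of the 33793 probe sets. The annotation names 22180 genes in this way over the whole array. Both models were built from epidermal keratinocytes and dermal fibroblasts of adult mouse skin, were labelled day 7 and were read as total RNA on 1 array each. The knockout model came from an Itih5 knockout mouse and the wildtype model from an Itih5 wildtype mouse. All mice were untreated. The strain, sex, exact age, number of animals, form of the deletion and cells added to either model are not stated in the labels. The cells had been passaged serially and grown on as colonies before use, so both models come from continuous cultures and not from fresh skin.

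Interferons are secreted proteins, and those of type I are released by cells on sensing viral nucleic acid. Type I interferons bind a receptor of the chains Ifnar1 and Ifnar2, interferon gamma binds Ifngr1 and Ifngr2, and kinases on the receptors then phosphorylate STAT proteins. A complex that holds Stat2 and Irf9 binds the interferon-stimulated response element (ISRE) in promoters, and STAT dimers bind the gamma-activated site (GAS). The genes so induced encode sensors of foreign RNA, enzymes that block translation or cut RNA, and the machinery that presents antigen. In skin, keratinocytes and fibroblasts both respond to interferons, and many of the genes are transcribed at a low level with no infection.

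The promoters below are shown because members at least 1.5-fold or almost 2-fold apart between the models, in either direction, and the transcription factors of the pathway carry different sets of these motifs. Rtp4, which reads furthest apart downward, is not shown. RefSeq windows on GRCm38.p6, from 250 bases before to 50 bases after the annotated start, were searched on both strands for GAAA, any 2 bases and GAAA again (the ISRE core), for TTC, any 3 bases and GAA (the GAS core), and for GGG, any 2 bases and TTTCC (a kappa B form). Each line holds 150 bases, 5′ to 3′ on the gene's strand, with the matches in capitals. The first 4 lines hold genes that read higher in the knockout model and contain the ISRE core.
Ddx58 (chr4:40239776-40239925, - strand): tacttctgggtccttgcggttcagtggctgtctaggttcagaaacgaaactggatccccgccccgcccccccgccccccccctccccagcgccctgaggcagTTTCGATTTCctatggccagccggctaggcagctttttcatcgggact
Stat2 (chr10:128270248-128270397, + strand): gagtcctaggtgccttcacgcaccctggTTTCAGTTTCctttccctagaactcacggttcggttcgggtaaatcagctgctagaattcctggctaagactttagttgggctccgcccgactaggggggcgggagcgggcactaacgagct
Bst2 (chr8:71537520-71537669, - strand): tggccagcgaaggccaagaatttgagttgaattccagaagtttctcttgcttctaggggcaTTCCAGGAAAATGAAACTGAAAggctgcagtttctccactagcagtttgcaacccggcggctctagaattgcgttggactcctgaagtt
Irgm1 (chr11:48871371-48871520, - strand): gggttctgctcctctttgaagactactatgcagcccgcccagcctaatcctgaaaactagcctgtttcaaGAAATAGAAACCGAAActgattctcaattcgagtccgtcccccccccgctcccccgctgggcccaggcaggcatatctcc
Isg15 and Ifit1 read lower in the knockout model and contain the ISRE core as well, 3 overlapping copies in Isg15 and 2 separate ones in Ifit1.
Isg15 (chr4:156200811-156200960, - strand): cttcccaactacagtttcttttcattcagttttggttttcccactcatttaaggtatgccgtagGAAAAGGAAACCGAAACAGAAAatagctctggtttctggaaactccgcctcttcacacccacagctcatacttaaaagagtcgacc
Ifit1 (chr19:34640724-34640873, + strand): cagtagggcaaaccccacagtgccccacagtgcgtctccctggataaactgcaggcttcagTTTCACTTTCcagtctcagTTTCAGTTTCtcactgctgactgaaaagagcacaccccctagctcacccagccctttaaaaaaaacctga
Ifnar2, Isg20 and Irf1 contain the GAS core with no ISRE core.
Ifnar2 (chr16:91372533-91372682, + strand): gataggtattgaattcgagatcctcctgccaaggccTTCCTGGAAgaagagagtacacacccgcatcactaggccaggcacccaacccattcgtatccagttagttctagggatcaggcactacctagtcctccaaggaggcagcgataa
Isg20 (chr7:78913280-78913429, + strand): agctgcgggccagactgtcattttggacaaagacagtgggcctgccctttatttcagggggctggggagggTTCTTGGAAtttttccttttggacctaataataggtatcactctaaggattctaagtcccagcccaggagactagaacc
Irf1 (chr11:53769853-53770002, + strand): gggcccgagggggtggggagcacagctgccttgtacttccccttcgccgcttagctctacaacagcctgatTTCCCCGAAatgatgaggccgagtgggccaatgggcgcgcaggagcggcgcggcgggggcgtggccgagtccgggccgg
Ifitm1, Irf7 and Irf9 contain none of the 3 motifs in this window, and the bases around the annotated start are shown.
Ifitm1 (chr7:140967956-140968105, + strand): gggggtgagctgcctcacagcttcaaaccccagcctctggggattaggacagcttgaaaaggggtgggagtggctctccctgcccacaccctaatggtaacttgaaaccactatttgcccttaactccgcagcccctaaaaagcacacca
Irf7 (chr7:141266395-141266544, - strand): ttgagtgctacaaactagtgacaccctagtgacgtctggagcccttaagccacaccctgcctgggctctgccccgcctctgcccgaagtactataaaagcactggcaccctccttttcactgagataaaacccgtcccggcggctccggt
Irf9 (chr14:55603865-55604014, + strand): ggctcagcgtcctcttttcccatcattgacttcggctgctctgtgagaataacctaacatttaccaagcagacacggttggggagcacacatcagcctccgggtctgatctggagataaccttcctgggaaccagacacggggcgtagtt
In Bst2 the GAS core overlaps the first of 2 ISRE cores, which overlap each other, and the 2 ISRE cores of Irgm1 overlap in the same way. Isg20 has 3 RefSeq windows and Irf1 and Irf9 have 2 each, of which 1 is printed. A match of letters is a description of the window and does not show that a factor binds there.

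The authors deposited linear intensities, 1 per probe set and array, whose decimal point had been lost, and the point was put back before any comparison. Restoring it gave 31832 probe sets (94.2%) a value, with medians of 46.2 in the knockout against 46.6 in the wildtype. A gene counted as expressed where the higher of its values reached 46.4, the median over the restored probe sets. Itih5 itself read 30.4 in the knockout against 29.8 in the wildtype, under this threshold on both arrays, so its probe set does not tell the models apart and cannot check the labels. With 1 array a group there is no replicate check of any difference and no p-value, and differences are described by size. Different probe sets are not on a common scale. Apart from the expression threshold and the choice among several probe sets of a gene, no probe set's intensity is set against another's. Where the intensities of a marker list are summed, the brightest probe sets dominate the sum.

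The interferon genes showed no common shift in one direction, and single members lay apart in both directions. Of the 41 genes, 40 were expressed, and Mx1 lay under the threshold with 28.0 in the knockout against 25.7 in the wildtype. Among the 40, 22 read higher and 18 lower in the knockout model, with a median log2 difference (knockout minus wildtype) of 0.05, beside 0.04 over all 12696 expressed genes. The middle part of the differences, between the quartiles, ran from -0.20 to 0.36 for the members and from -0.21 to 0.31 for all genes. At least 2-fold higher were 2 members (5.0%), beside 3.81% of all expressed genes, and at least 2-fold lower were 0 members, beside 3.32%. At 1.5-fold, 7 members (17.5%) read higher, beside 11.6% of all genes, and 4 members (10%) read lower, beside 8.33%. The other 29 lay within 1.5-fold. These shares lie near those of all genes, and none of them is a result about the interferon genes as a set. With a pseudocount of 16 added, Bst2 fell short of 2-fold, and Ifitm1, Irgm1, Ifit1, Irf7 and Isg15 fell short of 1.5-fold. Bst2 also fell short of 2-fold after quantile normalization.

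**Figure D1:**
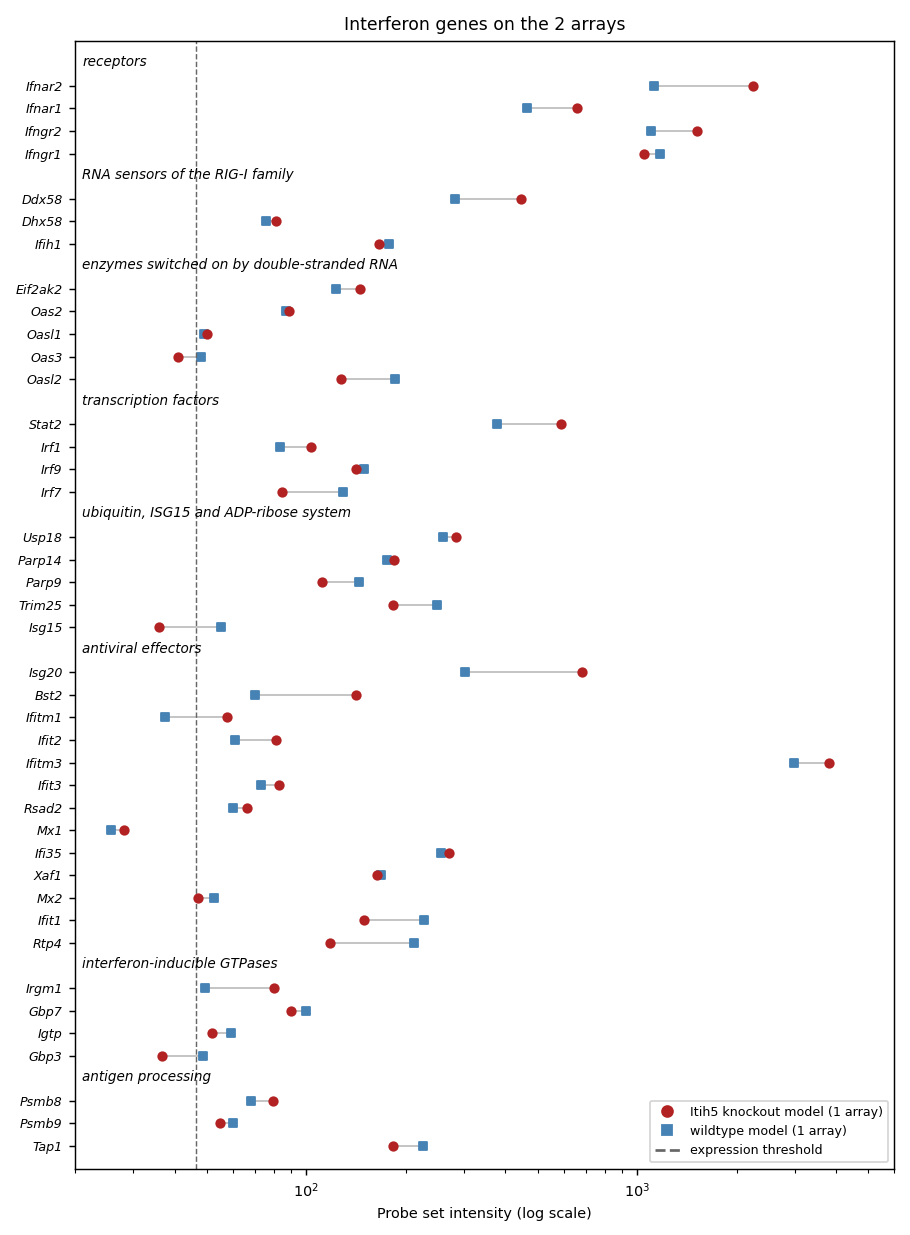
Intensity of each interferon gene's probe set on a log axis, grouped by role, with the knockout model as circles, the wildtype model as squares and the expression threshold as a dashed line. Isg20, Bst2 and Ifnar2 show the widest gaps with the knockout model higher, and Rtp4, Isg15, Irf7 and Ifit1 show the widest with it lower.

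Among the receptor chains, 3 of 4 read higher in the knockout model, beside 6887 of all 12696 expressed genes. The median difference of the chains was 0.47. Ifnar2, the chain that binds type I interferon with high affinity, read 2243 in the knockout against 1122 in the wildtype, a ratio that fell just short of 2-fold. Ifnar1, its partner, read 656 in the knockout against 466 in the wildtype, a difference of 0.49. The chains for interferon gamma split: Ifngr2 read 1516 in the knockout against 1106 in the wildtype (0.46), and Ifngr1, the ligand-binding chain, read 1052 in the knockout against 1176 in the wildtype (-0.16). Ifnar2, Ifnar1 and Ifngr2 are neighbours on chromosome 16, in the order Ifnar2, Il10rb, Ifnar1, Ifngr2, and Il10rb, the chain shared by the receptors of interferon lambda and interleukin 10, read 557 in the knockout against 519 in the wildtype (0.10). All 4 neighbours thus read higher in the knockout model, by unequal amounts.

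The RIG-I family of helicases senses viral RNA in the cytoplasm. Of its 3 members, 1 (33.3%) passed 1.5-fold upward, beside 11.6% of all expressed genes. Ddx58, which encodes RIG-I, read 444 in the knockout against 281 in the wildtype, 1.58-fold higher. Its decimal point had 2 possible places in the knockout model, with a probability of 0.975 for the reading used, and the other reading would put the knockout model at 44.4 and the difference at -2.66. Ifih1, the sensor of long double-stranded RNA known as MDA5, read 165 in the knockout against 178 in the wildtype (-0.11). Dhx58, known as LGP2, which modulates both, read 80.8 in the knockout against 75.7 in the wildtype (0.09). For Ifih1 and Dhx58 the models thus lay close together.

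The enzymes switched on by double-stranded RNA lay within 1.5-fold, with a median of 0.03. Eif2ak2, the kinase PKR that stops translation, read 146 in the knockout against 123 in the wildtype (0.24). The oligoadenylate synthetases make the activator of RNase L, and Oas2 read 88.4 in the knockout against 86.6 in the wildtype (0.03). Oas3 read 40.8 in the knockout, under the threshold, against 47.9 in the wildtype (-0.23). Both differences are under 1.5-fold. The synthetase-like Oasl1, which in mouse restrains translation of Irf7, read 50.0 in the knockout against 49.0 in the wildtype (0.03). Oasl2 had the widest gap of the group, with 127 in the knockout against 185 in the wildtype (-0.54). Its knockout value had 2 possible places, with a probability of 0.987 for the reading used. The other reading, 1273 in the knockout, would turn the difference to 2.78. Oas1a has only a probe set that also names Oas1g, which read 24.5 in the knockout against 29.5 in the wildtype.

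The 4 transcription factors split evenly. Stat2, which carries the activation domain of the complex that binds the ISRE, read 587 in the knockout against 378 in the wildtype, 1.55-fold higher. Its other reading, at a probability of 0.979 for the one used, would put the knockout model at 58.7 and the difference at -2.69. Irf9, its DNA-binding partner, read 141 in the knockout against 149 in the wildtype (-0.08). So the partners of one complex differed in size of change. Irf7, the factor that drives the genes for interferon alpha, read 84.6 in the knockout against 129 in the wildtype, 1.52-fold lower with 1 possible place on both arrays. Irf1, a target and effector of interferon gamma, read 103 in the knockout against 83.2 in the wildtype (0.31).

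**Figure D2:**
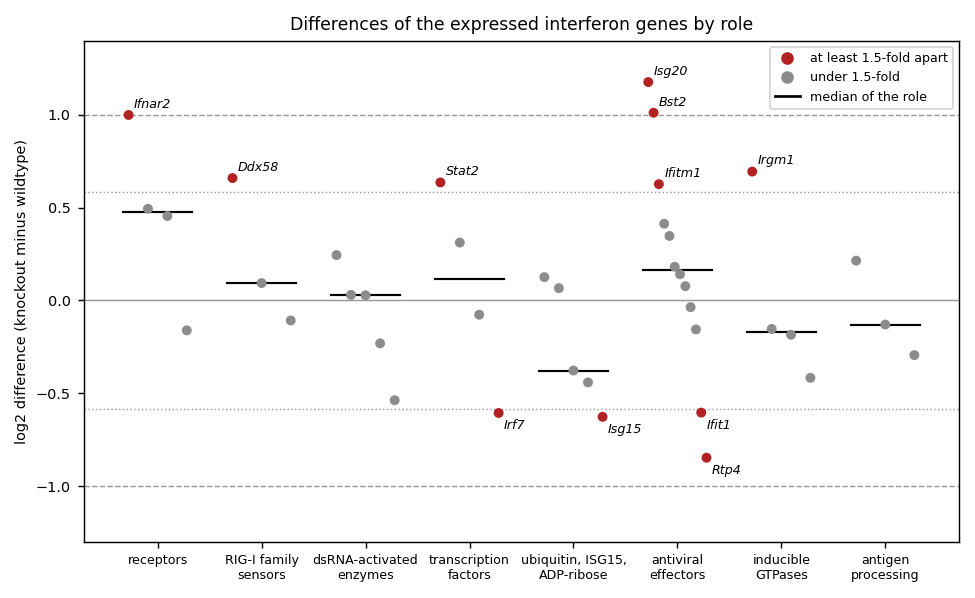
Log2 difference, knockout minus wildtype, of the 40 expressed interferon genes by role, 1 point a gene. Genes at least 1.5-fold apart are in red and named, black bars are the medians, dotted lines mark 1.5-fold and dashed lines 2-fold. The receptors have a median of 0.47 and the ubiquitin, ISG15 and ADP-ribose genes one of -0.38, and genes on both sides of 0 occur in every role.

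The ubiquitin, ISG15 and ADP-ribose genes had the lowest median of the roles, -0.38. Of the 5 expressed, 1 (20%) read at least 1.5-fold lower, beside 8.33% of all expressed genes. Isg15, the ubiquitin-like protein attached to other proteins in response to interferon, read 35.8 in the knockout, under the threshold, against 55.4 in the wildtype (-0.63). Usp18, which removes ISG15 and dampens signalling at Ifnar2, read 283 in the knockout against 259 in the wildtype (0.13). Isg15 and its deconjugating enzyme thus lay on opposite sides of 0, the enzyme within 1.5-fold. Trim25, the ubiquitin ligase that acts on RIG-I, read 183 in the knockout against 249 in the wildtype (-0.44). Parp9, which forms a complex with the ligase Dtx3l, read 111 in the knockout against 144 in the wildtype (-0.38). The probe set that Dtx3l shares with Parp9, its neighbour on chromosome 16, read 148 in the knockout against 179 in the wildtype (-0.28), on the same side of 0 as Parp9's own. Parp14, an ADP-ribosyltransferase beside them, read 184 in the knockout against 176 in the wildtype (0.07).

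Of the 12 expressed antiviral effectors 2 (16.7%) read at least 2-fold higher, beside 3.81% of all expressed genes. At 1.5-fold 3 (25%) read higher and 2 (16.7%) lower, beside 11.6% and 8.33% of all expressed genes. Isg20 (probe set 17479317, Entrez 57444, chromosome 7), an exonuclease that degrades RNA, read 683 in the knockout against 302 in the wildtype, 2.26-fold higher. Bst2 (probe set 17510345, Entrez 69550, chromosome 8), the tetherin that holds budding virus at the cell surface, read 141 in the knockout against 70.1 in the wildtype, 2.02-fold higher. Both had 1 possible place of the point on both arrays. Ifitm1, a membrane protein that blocks viral fusion, read 57.5 in the knockout against 37.3 in the wildtype, where it lay under the threshold (0.63). Its relative Ifitm3 read 3798 in the knockout against 2985 in the wildtype (0.35). Among their neighbours on chromosome 7, Ifitm2 read 157 in the knockout against 78.0 in the wildtype (1.01), and Ifitm5 read 74.4 in the knockout against 58.5 in the wildtype (0.35). All 4 expressed genes of this run read higher in the knockout model, as did 6887 of all 12696 expressed genes.

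Lower in the knockout model were Rtp4 and Ifit1. Rtp4 (probe set 17324446, Entrez 67775, chromosome 16), which encodes a transporter of membrane receptors and is induced by interferon, read 118 in the knockout against 212 in the wildtype, 1.80-fold lower and the widest gap downward among the members. The knockout value had 2 possible places, and the other would be 11769. Ifit1 (probe set 17358832, Entrez 15957, chromosome 19), which binds viral RNA that lacks cap methylation, read 149.5 in the knockout against 227 in the wildtype, 1.52-fold lower. Ifit2 and Ifit3, of the same family and the same run of genes on chromosome 19, did not follow it. Ifit2 read 81.0 in the knockout against 60.8 in the wildtype (0.41), and Ifit3 read 82.5 in the knockout against 72.7 in the wildtype (0.18).

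The remaining effectors lay within 1.5-fold. Rsad2, or viperin, which makes a nucleotide that stops viral polymerases, read 66.3 in the knockout against 60.1 in the wildtype (0.14). Mx2, a dynamin-like GTPase, read 47.0 in the knockout against 52.4 in the wildtype (-0.16). Xaf1, a partner of the apoptosis inhibitor XIAP, read 164 in the knockout against 168 in the wildtype (-0.04). Each of these differences is small beside those of Isg20 and Bst2. Ifi35, a partner of Nmi, has 2 probe sets that disagree in sign: the one with the higher mean read 269.8 in the knockout against 256 in the wildtype (0.08), and the other 46.3 in the knockout against 50.4 in the wildtype (-0.12). No value is given for Ifi44.

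Of the interferon-inducible GTPases, which attack the vacuoles of intracellular parasites, Irgm1 alone passed 1.5-fold. It read 80.0 in the knockout against 49.4 in the wildtype, 1.62-fold higher. Upward this is 25% of the 4 expressed, beside 11.6% of all expressed genes. The guanylate-binding proteins read lower: Gbp3 had 36.5 in the knockout, under the threshold, against 48.7 in the wildtype (-0.42), and Gbp7 had 89.8 in the knockout against 99.9 in the wildtype (-0.15). Igtp, a relative of Irgm1, read 52.0 in the knockout against 59.1 in the wildtype (-0.18). Gbp2 is read by a probe set it shares with Gbp2b, with 144 in the knockout against 101 in the wildtype (0.51), which is the other way from Gbp3 and Gbp7. The 3 genes of antigen processing lay within 1.5-fold. Psmb8, a subunit of the immunoproteasome, read 79.2 in the knockout against 68.2 in the wildtype (0.21). Psmb9, another subunit, read 54.9 in the knockout against 60.1 in the wildtype (-0.13). Tap1, a chain of the peptide transporter, read 183 in the knockout against 225 in the wildtype (-0.29). The 3 are neighbours on chromosome 17 and did not share a direction.

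**Figure D3:**
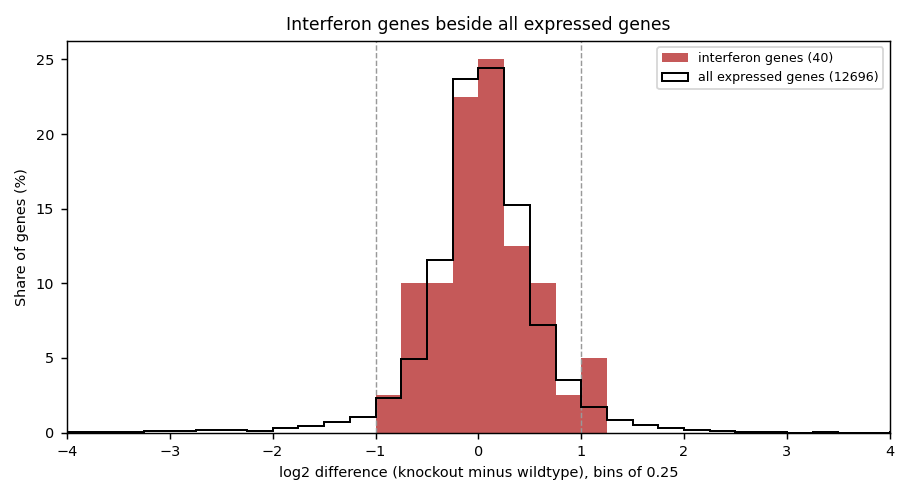
Share of genes in bins of 0.25 log2 difference, knockout minus wildtype, for the 40 expressed interferon genes (filled) and all 12696 expressed genes (line), with dashed lines at 2-fold. Both are centred near 0, with medians of 0.05 and 0.04, and the interferon genes extend from -0.85 to 1.18.

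The culture's cell markers differed more between the models than the interferon genes did. Of 12 keratinocyte markers 10 were expressed and all 10 read lower in the knockout model, beside 5809 of all 12696 expressed genes. Their median difference was -0.99, with a summed intensity of 15679 in the knockout against 34827 in the wildtype. Of 11 fibroblast markers 9 were expressed and all 9 read higher in the knockout model, beside 6887 of all 12696 expressed genes. Their median difference was 0.89, with a sum of 16796 in the knockout against 8221 in the wildtype. Lum, a fibroblast marker under the threshold on both arrays, read 24.6 in the knockout against 30.9 in the wildtype (-0.33). Both labelled cell types were therefore present on both arrays by their markers, among them Krt14 with 4076 in the knockout against 9538 in the wildtype and Col1a1 with 2145 in the knockout against 876 in the wildtype. In bulk RNA, fewer cells of a type and less RNA per cell cannot be told apart. The part of this shift in the differences of the interferon genes was not tested. Immune cells also express many of these genes. Of 11 macrophage and Langerhans cell markers 4 were expressed, with a summed intensity of 1136 in the knockout against 1503 in the wildtype, and Csf1r, Adgre1, Itgam and Cd207 lay under the threshold on both arrays. Of 5 markers of plasmacytoid dendritic cells 4 were expressed, with a sum of 1149 in the knockout against 775 in the wildtype, while Siglech lay under the threshold. Tcf4, with 753 in the knockout against 563 in the wildtype, and Tlr7 made up most of that sum, Irf8 differed by 0.02 log2, and Ccr9 read 34.7 in the knockout, under the threshold, against 58.0 in the wildtype. Of 10 T and NK cell markers 1 was expressed, Nkg7, with 46.4 in the knockout against 47.2 in the wildtype. Cd3e, Cd3d, Cd8a and Cd4 lay under the threshold.

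Other genes of the pathway were listed by function, 169 in all. Of these, 126 had a value and 86 were expressed, with a median difference of 0.10. Past 2-fold, 4 of the 86 (4.65%) read higher in the knockout model, beside 3.81% of all expressed genes, and 1 (1.16%) read lower, beside 3.32%. At 1.5-fold 13 read higher (15.1%), beside 11.6% of all genes, and 3 lower (3.49%), beside 8.33%.

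No expressed interferon ligand passed 1.5-fold. Of 18 ligands with a value 7 were expressed, and their median difference was -0.02. Ifnab, under the threshold on both arrays, read 28.3 in the knockout against 44.7 in the wildtype (-0.66). Ifnb1 read 28.2 in the knockout against 27.6 in the wildtype, and Ifng, the gene of interferon gamma, read 25.6 in the knockout against 26.7 in the wildtype. Both lay under the threshold on both arrays, so RNA of these ligands was not detectable above the level of the median probe set in either model.

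The lambda receptor, kinases, STATs and their inhibitors had 11 expressed genes with a median of 0.10. Jak1, the kinase bound to both Ifnar2 and Ifngr1, read 1540.3 in the knockout against 847 in the wildtype (0.86). Its value had 3 possible places in the wildtype model, with a probability of 0.961 for the one used. Another reading, 8467 in the wildtype, would turn the difference to -2.46. Socs3, a feedback inhibitor of the kinases, read 147 in the knockout against 97.0 in the wildtype (0.60) with the first of its 2 probe sets, and 39.2 in the knockout against 35.2 in the wildtype (0.16) with the other. Jak2 and Tyk2 were left undecided. For each, the likeliest reading and another 10-fold higher on both arrays give the same difference, 0.12 for Jak2 and 0.41 for Tyk2. None of the 3 other expressed IRF genes passed 1.5-fold.

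Of the nucleic acid sensing genes 10 were expressed, with a median of -0.03, and 3 (30%) passed 1.5-fold upward in the knockout model and 0 downward, beside 11.6% and 8.33% of all expressed genes. Tlr7, the receptor for single-stranded RNA, read 315 in the knockout against 108 in the wildtype, 2.91-fold higher. Tlr3, the receptor for double-stranded RNA, read 392 in the knockout against 188 in the wildtype, 2.09-fold higher. Ikbke, a kinase that activates Irf3 and Irf7, read 466 in the knockout against 242 in the wildtype, 1.92-fold higher. The other 7 lay within 1.5-fold, 2 of them above 0 and 5 below. Tlr7 is also in the list of plasmacytoid dendritic cell markers, of which Siglech lay under the threshold.

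Among other interferon-stimulated genes 35 were expressed, with a median of 0.11, and 5 (14.3%) read higher by 1.5-fold or more in the knockout model and 2 (5.71%) lower, beside 11.6% and 8.33% of all expressed genes. Lgals3bp, a secreted glycoprotein that binds galectin-3, read 2874 in the knockout against 964 in the wildtype, 2.98-fold higher. Uba7, the enzyme that activates ISG15 for attachment, read 99.9 in the knockout against 51.9 in the wildtype (0.94), the opposite direction to Isg15. Rnf213, a large ubiquitin ligase, read 612 in the knockout against 358 in the wildtype (0.77). These and Ifitm2 are the 4 highest of the list. The widest gap downward was in Cxcl9, a chemokine for T cells induced by interferon gamma, with 41.3 in the knockout, under the threshold, against 136 in the wildtype (-1.72). Phf11b read 59.0 in the knockout against 109 in the wildtype (-0.88).

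Of 6 other expressed GTPases, Gbp9 read 41.5 in the knockout, under the threshold, against 72.8 in the wildtype (-0.81), at a probability of 0.957, and its other reading of 415 in the knockout would turn the difference to 2.51. Gbp11 went the other way, with 48.1 in the knockout against 30.7, under the threshold, in the wildtype (0.65). The 14 other expressed genes of antigen processing and MHC had a median of 0.19. H2-K1, a classical class I heavy chain, read 576 in the knockout against 346 in the wildtype (0.74). H2-Q4, a class Ib gene, read 202 in the knockout against 117 in the wildtype (0.79) with one probe set, and 48.9 in the knockout against 52.0 in the wildtype (-0.09) with its other. Genes of the MHC, the guanylate-binding proteins, the IFIT family and the oligoadenylate synthetases have close copies, and how far their probe sets read each other's RNA was not tested.

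**Figure D4:**
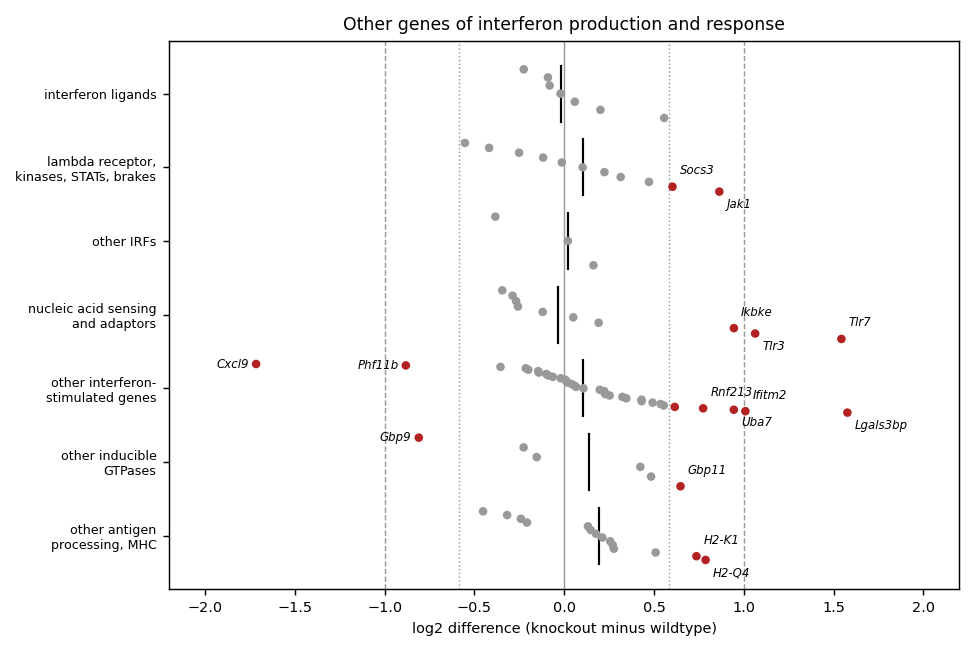
Log2 difference, knockout minus wildtype, of the 86 expressed genes of the other lists, 1 point a gene, with list medians as black bars, 1.5-fold as dotted lines and 2-fold as dashed lines. Genes at least 1.5-fold apart are in red, and up to 6 a list are named. Lgals3bp at 1.58 and Tlr7 at 1.54 lie furthest to the right and Cxcl9 at -1.72 furthest to the left.

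RefSeq windows were found for 37 of the 45 members. The ISRE core was present in 17 of the 37 (45.9%), beside 3.99% of all 27025 genes and 3.44% of all 32851 windows. The 15 expressed genes with it had a median difference of 0.14 and lay on both sides of 0, with 8 above and 7 below. The range ran from Isg15 at -0.63 to Bst2 at 1.01, and the 18 expressed genes without it had a median of 0.05. The GAS core was present in 13 of the 37 (35.1%), beside 9.55% of all genes and 8.30% of all windows. Of the 12 expressed genes with it, 10 read higher in the knockout model and 2 lower, with a median of 0.33. Over all 12696 expressed genes, 6887 read higher and 5809 lower, and genes outside the list were not split by this motif. Of the 21 without it, 8 read higher and 13 lower, with a median of -0.11. The kappa B form was present in 1 member, Ifngr2, beside 1.89% of all genes and 1.63% of all windows. These counts describe letters in the reference and intensities on 2 arrays, and no difference between genes with and without a motif was tested.

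**Figure D5:**
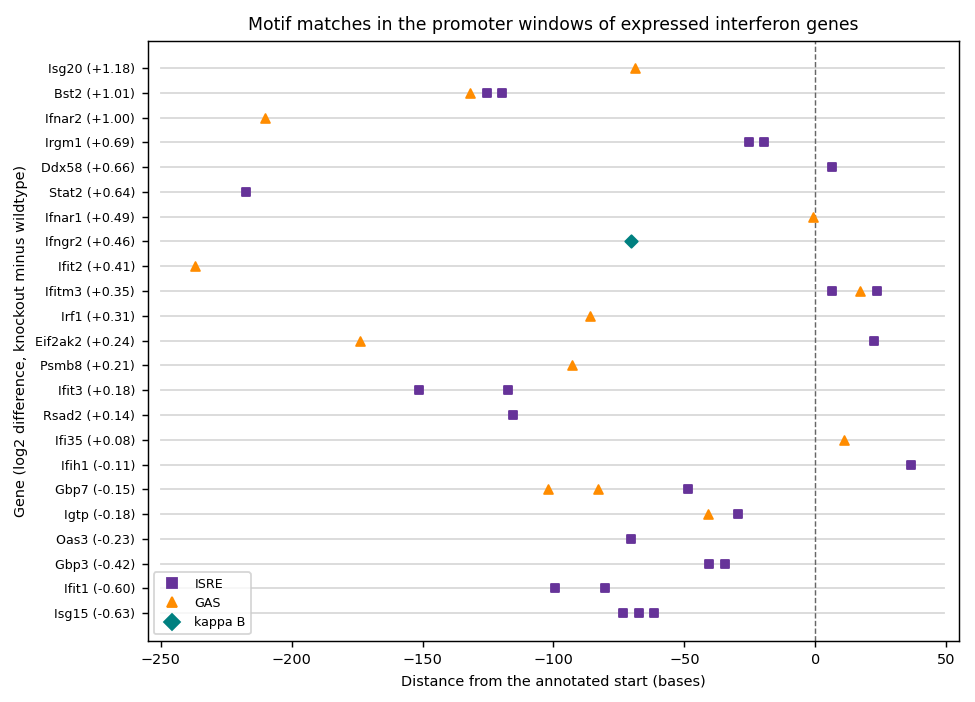
Position of each motif match, as the distance of its centre in bases from the annotated start, in the expressed interferon genes with at least 1 match, ordered by log2 difference (knockout minus wildtype, in brackets). ISRE cores (squares) occur from Bst2 near the top to Isg15 at the bottom. GAS cores (triangles) lie in 10 genes above 0 and 2 below, beside 6887 above and 5809 below among all 12696 expressed genes.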

How the data were processed

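Per the labels' protocols, total RNA was amplified to sense-strand cDNA and labelled with biotin for an Affymetrix array. How the arrays were scanned, summarised and normalized is not stated in the labels. The authors deposited linear intensities, 1 per probe set and array. Of 67586 values, 67457 had lost their decimal point, and as written the arrays correlated with r = 0.04 (Pearson, over probe sets, which do not replicate each other). A possible place gave a number between 18 and 20000 that is 2 to a single-precision exponent, written in as few digits as single precision needs. Both arrays had a single possible place for 20952 probe sets (62.0%), with r = 0.96. For the rest, pairs of places were weighted by how often each combination of level and difference occurs, over 25 rounds of expectation maximisation, and a pair was accepted from a probability of 0.95. An estimated 47.7 of the 31832 restored probe sets are misplaced, and 1961 were left undecided.

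Log2 intensities were subtracted, knockout minus wildtype, with no further normalization. A log2 difference of 1 is 2-fold and one of 0.58 is 1.5-fold. Only probe sets with 1 symbol were used (23521; 1814 have several and 8458 none), and the probe set of highest mean where a gene had several. Genes counted as expressed at 5.54 log2 or above on either array. All members with a value were named, and of the other lists at most 6 genes at least 1.5-fold apart and expressed, with Jak1, Jak2, Tyk2, Ifnb1 and Ifng. Endothelial and melanocyte marker lists were read too. The members and lists were chosen with earlier results of these data known. The restoration was tested on simulated data. Python 3.11.15, numpy 2.4.6 and pandas 2.3.3 were used. The number of arrays limits the precision. Alternatives were stricter and looser restoration, other thresholds, normalization, pseudocounts and probe set rules.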

Additional observations from a re-analysis of the deposited data

How the results depend on the processing

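No sample could be left out, since each group has 1 array. No paired analysis was possible because there are no pairs of replicates. Of 627 differences of 59 named genes under 11 alternatives, 616 stayed within 0.25 log2 of the value reported, 9 moved further and 2 differences of at least 1.5-fold changed sign. Among the 616, Ifi35 turned from 0.08 to -0.02 with the mean of its probe sets. Both reversals past 1.5-fold were H2-Q4, at -0.0901 with a probability of at least 0.99 and with 1 possible place only, where its other probe set is used by construction. With 1 possible place only, which tests fewer genes, 304 genes passed 2-fold upward, 830 passed 1.5-fold upward and 653 downward, and 4 members passed 1.5-fold upward, with Ddx58, Stat2, Ifitm1 and Rtp4 left out. At 0.99, Ddx58 and Stat2 were left out. Quantile normalization left 1 member 2-fold higher, with Bst2 at 0.996. Median centring shifts every difference by the same constant and gave 3, as Ifnar2 went from 0.9997 to 1.01. A pseudocount shrinks low values by construction: with 16 and with 32, 1 member read 2-fold higher and 1, Rtp4, 1.5-fold lower, and with 32, 318 genes read 2-fold higher. The members' median ran from 0.03 to 0.07. Values under the threshold on 1 array (Oas3, Isg15, Ifitm1, Gbp3, Cxcl9, Gbp9, Gbp11) give differences that depend on the background, and 11 of the 40 expressed members had several possible places of the point.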

Other observations

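ISG15 is attached to other proteins by an activating, a conjugating and a ligating enzyme in turn, whose values were chosen here after they were seen. Ube2l6, the conjugating enzyme, read 182 in the knockout against 156 in the wildtype (log2 difference, knockout minus wildtype, of 0.22). Herc6, the ligase for ISG15 in mouse, read 123 in the knockout against 122 in the wildtype (0.01). With Uba7 at 0.94, these enzymes lay above 0, though only Uba7 passed 1.5-fold. Isg15 lay at -0.63, with its knockout value under the threshold, and the ubiquitin ligase Trim25 of the same role at -0.44. Sp100, a nuclear body protein, was the remaining gene among the 5 other interferon-stimulated genes at least 1.5-fold higher. Its probe set with the highest mean read 114 in the knockout against 74.4 in the wildtype (0.62), and another read 101 in the knockout against 34.9 in the wildtype (1.54), while one at low level read 23.5 in the knockout against 24.9 in the wildtype (-0.09).

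Some genes of the pathway stayed undecided because no reading of the lost point reached the probability of 0.95 that was asked for. Sting1, the adaptor that answers cytosolic DNA, read 668 in the knockout against 132 in the wildtype under the likelier reading (2.34, probability 0.925), and 6684 in the knockout against 132 in the wildtype under the other. Both readings put the knockout model higher. Slfn2, a schlafen gene induced by interferon, read 957 in the knockout against 374 in the wildtype under the likelier reading (1.35, probability 0.560), and 95.7 in the knockout against 374 in the wildtype under the other (-1.97), so its direction is unknown. Ifi202b, of the family of DNA-binding proteins around AIM2, read 474 in the knockout against 1198 in the wildtype under its likeliest reading (-1.34, probability 0.812). Another of its 4 possible pairs, 4737.5 in the knockout against 11975.7 in the wildtype, has the same difference. A pair of 4737.5 in the knockout and 1198 in the wildtype would put the knockout model higher, so its direction is unknown.

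Probe sets that name 2 genes were not counted. Those of Gvin1 and Gm4070, large inducible GTPases, read lower in the knockout model, with 65.7 in the knockout against 101.8 in the wildtype on one and 60.4 in the knockout against 95.9 in the wildtype on the other. The probe set of H2-T22 and H2-T9 read 445 in the knockout against 292 in the wildtype (0.61). Among markers of cells not named in the labels, Mlana, a melanocyte gene, read 705 in the knockout against 109 in the wildtype, Mitf differed by 1.11, Pmel by 0.29 and Sox10 by -0.37 (log2, knockout minus wildtype), and Dct, Tyr and Tyrp1 lay under the threshold on both arrays.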
